A study of Mus musculus with 43 samples.

Results

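The genes described here encode the receptors of insulin and of the insulin-like growth factors (IGFs), their adaptor proteins and the IGF binding proteins, measured by RNA sequencing in the inguinal white adipose tissue of mice, a depot of subcutaneous fat in the groin. The members were chosen by name: Insr, Igf1r, Irs1, Irs2, Igfbp2, Igfbp3, Igfbp4, Igfbp5, Igfbp6 and Igfbp7. Of these 10 genes, 6 were matched by Entrez ID to a row in each of the 5 deposited tables, out of 22622 gene identifiers per table. Irs2, Igfbp2, Igfbp3 and Igfbp4 are not analysed here. The members with values were Insr, Igf1r, Irs1, Igfbp5, Igfbp6 and Igfbp7, and each passed the filter on low values in every table.

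The series holds 43 samples in 9 groups. By its title, it asks which pathways serve the development of beige adipocytes, the thermogenic fat cells of this depot, around weaning and which serve their recruitment by cold. The P28 groups were wild-type C57BL/6J mice kept at 30 C (n = 4), TrkA-flox Th-cre mice at 22 C (n = 4) and wild-type C57BL/6J mice at 22 C (n = 4). Bcl6-flox Prx1-cre mice (n = 8) and Bcl6-flox mice (n = 7) were sampled at P25 and 22 C, and the same genotypes (n = 4 each) at 9 weeks and 4 C. Wild-type C57BL/6J mice of 9 weeks were kept at 4 C (n = 4) or 22 C (n = 4). Th-cre acts in cells that express tyrosine hydroxylase, such as sympathetic neurons, so any loss of TrkA, the receptor of nerve growth factor, need not lie in the fat cells. The mice it was compared with were C57BL/6J and not floxed mice without Cre. Prx1-cre acts in limb bud and other mesenchyme, so a loss of Bcl6, a transcriptional repressor, is not limited to adipocytes, and both 9-week Bcl6 groups carry the floxed allele and were in the cold.

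The insulin receptor Insr and the IGF receptor Igf1r are tyrosine kinases at the cell surface that phosphorylate adaptor proteins such as Irs1, which then recruit phosphatidylinositol 3-kinase and so turn on Akt. In fat this pathway drives glucose uptake and lipid storage and restrains lipolysis, and IGF signalling takes part in the growth of preadipocytes. The IGF binding proteins are secreted and hold IGFs in the extracellular space, and proteases release the growth factor from them. Igfbp6 prefers Igf2, Igfbp5 also binds the matrix, and Igfbp7 binds IGFs only weakly and is a well known product of blood vessel endothelium.

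The stretches before the start sites of 4 members are shown because Igfbp7 and Irs1 were the members that passed the test and Igfbp5 and Igfbp6 the members that varied most between libraries. They are the 250 bases upstream of the RefSeq start on GRCm38.p6, written 5′ to 3′ on the strand of the gene. Igfbp7 lies at chr5:77408046-77408295, Irs1 at chr1:82291440-82291689 and Igfbp5 at chr1:72874866-72875115, all on the minus strand, and Igfbp6 at chr15:102143936-102144185 on the plus strand. Capitals mark GGGCGG, the GC box, on either strand in Igfbp7 and Irs1, and CCAAT in Igfbp6.
Igfbp7: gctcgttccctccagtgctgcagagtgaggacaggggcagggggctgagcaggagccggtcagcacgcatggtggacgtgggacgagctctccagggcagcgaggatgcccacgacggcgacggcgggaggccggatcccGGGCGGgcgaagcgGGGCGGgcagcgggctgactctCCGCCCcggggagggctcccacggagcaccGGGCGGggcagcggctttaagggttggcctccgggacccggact
Irs1: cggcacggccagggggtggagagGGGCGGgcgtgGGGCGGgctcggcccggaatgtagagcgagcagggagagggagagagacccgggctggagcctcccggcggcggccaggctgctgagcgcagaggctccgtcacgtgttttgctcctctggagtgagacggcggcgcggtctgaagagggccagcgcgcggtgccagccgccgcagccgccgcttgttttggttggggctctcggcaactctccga
Igfbp5: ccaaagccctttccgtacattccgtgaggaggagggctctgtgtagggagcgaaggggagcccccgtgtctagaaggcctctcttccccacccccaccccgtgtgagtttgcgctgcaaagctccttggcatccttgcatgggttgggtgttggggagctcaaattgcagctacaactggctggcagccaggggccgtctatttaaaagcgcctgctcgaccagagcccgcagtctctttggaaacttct
Igfbp6: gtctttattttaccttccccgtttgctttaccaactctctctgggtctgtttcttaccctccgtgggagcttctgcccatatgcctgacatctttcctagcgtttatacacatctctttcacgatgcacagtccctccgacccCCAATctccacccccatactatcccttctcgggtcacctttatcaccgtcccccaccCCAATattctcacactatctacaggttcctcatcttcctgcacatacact
The Igfbp7 window was 74% G and C with 4 GC boxes, and the Irs1 window 72.4% with 2. The Igfbp5 window was 58.8% and the Igfbp6 window 49.6% G and C, against a median of 52.4% over 32851 mouse promoters of the same length. GGGCGG was found in 32.7% of those promoters and CCAAT in 33.8%. TTCNNNGAA, core letters shared by binding sites of STAT5 and Bcl6 and searched on both strands, was in none of the 4 windows and in 7.02% of all promoters. Such matches describe letters only, and say nothing of whether a factor binds.

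The values are normalized counts per gene, deposited in 5 tables that were scaled separately, so groups were compared within a table. In libraries of P28 and P25 the estimated depth was 3500000 to 15800000 reads, and in the 9-week tables it was not determined. All libraries held adipocyte transcripts, with no adipocyte marker at 0 in any group of any comparison. Ucp1, the proton carrier of thermogenic fat, was lower at 30 C at P28, in TrkA-flox Th-cre and in both Bcl6-flox Prx1-cre groups, and higher at 4 C. Total Bcl6 was higher and not lower in libraries labelled Bcl6-flox Prx1-cre, at 1517 to 3329 against 454 to 1395 in Bcl6-flox at P25, and at 9624 to 14490 against 1607 to 2529 at 9 weeks. A gene total does not show whether the floxed exons are gone, so it does not check the genotype. The 9-week Bcl6-flox library 3 stood apart, with a skeletal muscle marker sum of 532300, against 175 to 4691 in the 4 Bcl6-flox Prx1-cre libraries and 2393 to 22980 in the other 3 Bcl6-flox libraries. Its epithelial marker sum was 4181, against 8714 to 20040 in Bcl6-flox Prx1-cre and 31210 to 43050 in the other Bcl6-flox libraries. Libraries whose Xist value was above their summed Y-linked markers are called Xist-high and the others Xist-low, and all 8 libraries of the 9-week Bcl6 comparison were Xist-high. In tissue samples like these, fewer cells of a type and less RNA per cell cannot be told apart. The labels do not state whether each sample is its own mouse, so the p-values reflect only how far these samples spread.

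Per kilobase of the longest annotated protein-coding transcript, Igfbp7 had the highest level of the 6 genes in each group. In wild-type fat at P28 and 22 C it had 1944 ± 217 normalized counts per kilobase (SD, n = 4). Igfbp6 followed at 508 ± 93.8 and Igfbp5 at 329 ± 57.4, and their libraries did not overlap. Insr had 118 ± 14.6, Irs1 76 ± 11.1 and Igf1r 19.9 ± 1.09 per kilobase, each range apart from the next. At 9 weeks and 22 C the order by mean was the same, with Igfbp7 at 2107 ± 256, Igfbp6 at 1017 ± 577 and Igfbp5 at 590 ± 421, Insr at 189 ± 36.5, Irs1 at 138 ± 33.9 and Igf1r at 23.2 ± 8.5 (SD, n = 4 each). There Igfbp6 and Igfbp5 overlapped, as did Igfbp5 and Insr, and Insr and Irs1, so their order is not set beyond the spread.

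Bcl6-flox Prx1-cre fat at 9 weeks and 4 C gave the clearest changes among these genes. Igfbp7 and Irs1 rose, by 1.98-fold and 1.27-fold, and Insr, Igf1r, Igfbp5 and Igfbp6 did not pass the test. A gene was called at an adjusted p under 0.05, by limma on log2(value + 1) with Benjamini-Hochberg adjustment over all tested genes. The 2 of 6 members called compare with 1953 of 13496 genes, or 14.5%, called in these mice. There 22.3% of genes had groups that did not overlap, as did 2 of the 6 members. The members' median log2 fold change was 0.23, against -0.02 over all genes tested.

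Igfbp7 had 10990, 11590, 11220 and 9581 normalized counts in the 4 Bcl6-flox Prx1-cre libraries, against 4840, 5671, 5620 and 5782 in the 4 Bcl6-flox libraries. Each Prx1-cre library was well above every Bcl6-flox library. The means were 10850 ± 879 and 5478 ± 431 (SD, n = 4 each), and the log2 fold change was 0.99 ± 0.09 (SE; limma adjusted p = 0.000585). It ranked 42nd of the 13496 genes by p. With each library left out in turn the log2 fold change stayed between 0.93 and 1.04 and was called in 8 of 8 fits.

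Igfbp7 is made by endothelium, and the endothelial marker sum was 24700 to 28700 in Bcl6-flox Prx1-cre and 16240 to 18810 in 3 of the Bcl6-flox libraries. The other Bcl6-flox library, number 3, which stood apart by its muscle markers, had an endothelial sum of 27380 and an Igfbp7 value of 5620. Of 12 endothelial markers tested 2 rose, none fell, and their median log2 fold change was 0.38. With the endothelial list score as a covariate, an alternative added once the data had been seen, the log2 fold change of Igfbp7 was 0.99 ± 0.13 (SE; limma adjusted p = 0.00891). The endothelial sums of the groups overlapped only through library 3, so this fit cannot separate genotype from the endothelial share of the tissue. Whether that share has a part in the difference was not tested. Macrophage marker sums also differed, at 21730 to 36990 in Bcl6-flox Prx1-cre against 13210 to 16440 in Bcl6-flox, with 10 of 12 markers risen, and their part in the result was not tested.

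Irs1, the adaptor that couples both receptors to phosphatidylinositol 3-kinase, had 3672, 3681, 3726 and 4117 normalized counts in Bcl6-flox Prx1-cre, against 2855, 3153, 3134 and 2847 in Bcl6-flox. The groups did not overlap, and replicate 4 of Bcl6-flox Prx1-cre was the highest. The log2 fold change was 0.34 ± 0.07 (SE; limma adjusted p = 0.0117), and it was called in 8 of 8 fits with 1 library left out. With the endothelial covariate the size was close to this, 0.33 ± 0.10, but the call was lost (limma adjusted p = 0.0877).

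**Figure D1:**
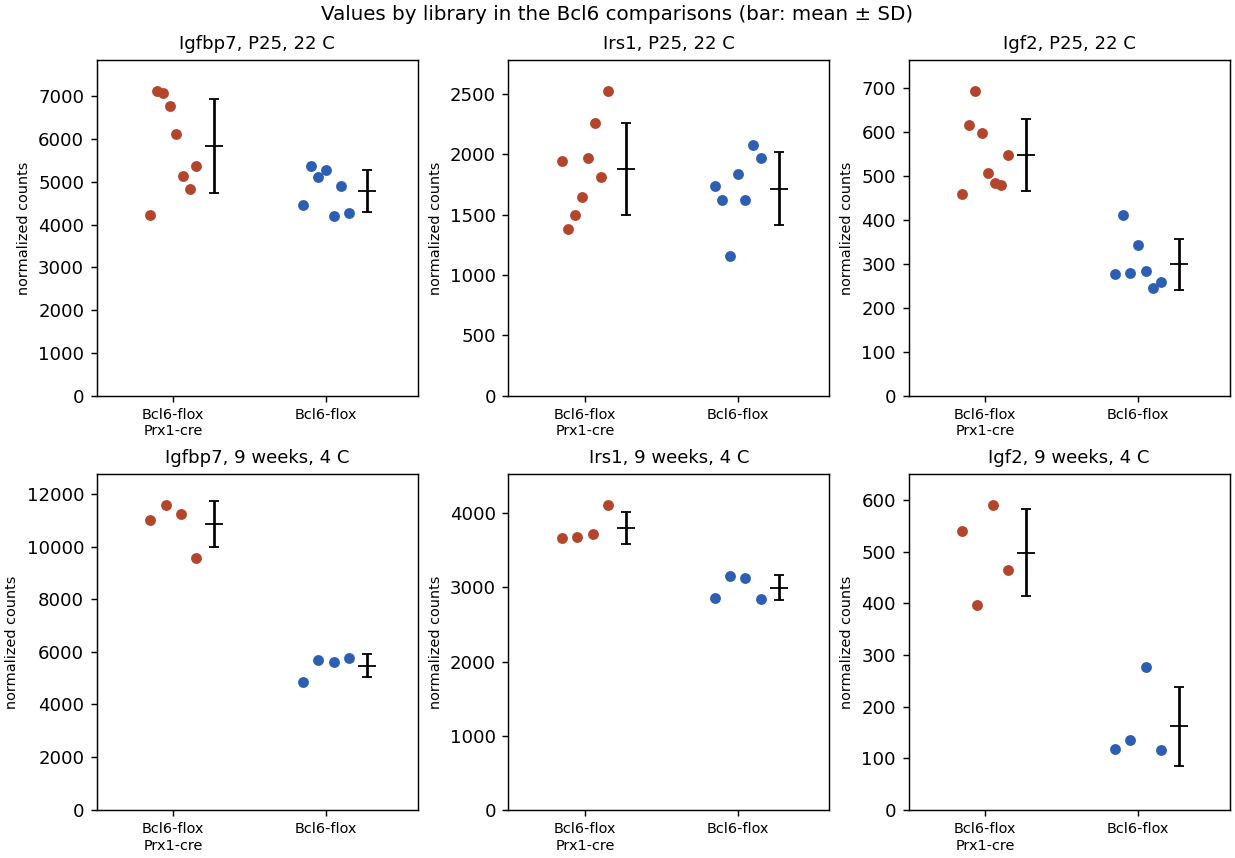
Normalized counts of Igfbp7, Irs1 and the ligand gene Igf2 in each library of Bcl6-flox Prx1-cre (left) and Bcl6-flox (right) mice at P25 and 22 C (top) and 9 weeks and 4 C (bottom), with bars for the mean ± SD. At 9 weeks all Igfbp7 points of Bcl6-flox Prx1-cre lie at 9581 or above and those of Bcl6-flox at 5782 or below, while at P25 the groups overlap for Igfbp7 and Irs1.

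The receptors differed less in these 9-week mice. Insr had 6889, 7188, 6942 and 7885 normalized counts in Bcl6-flox Prx1-cre, against 6093, 5912, 6939 and 6072 in Bcl6-flox. Only Bcl6-flox library 3, the one rich in muscle transcripts, reached into the Prx1-cre range. The log2 fold change was 0.21 ± 0.08 (limma adjusted p = 0.106), and without that library it was 0.26 and was called (limma adjusted p = 0.0261). This was the only call of Insr in 8 fits with 1 library left out. Igf1r had 782, 616, 858 and 874 in Bcl6-flox Prx1-cre, against 638, 593, 657 and 707 in Bcl6-flox, with library 2 of the Prx1-cre group inside the Bcl6-flox range. Its log2 fold change was 0.26 ± 0.12 (limma adjusted p = 0.183), and 0.37 without that Prx1-cre library (limma adjusted p = 0.0412). Igf1r too was called in only 1 of 8 such fits, so neither receptor's call holds over the libraries.

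Igfbp5 showed how far 1 library can set a value. It had 5948, 7012, 6784 and 7091 normalized counts in Bcl6-flox Prx1-cre, against 9693, 7861, 3134 and 11500 in Bcl6-flox. The muscle-rich library was the lowest of all 8 and the other 3 Bcl6-flox libraries were the highest. The log2 fold change was -0.11 ± 0.36 (limma adjusted p = 0.857) with all libraries and -0.52 ± 0.13 (limma adjusted p = 0.0202) without that library. Igfbp5 was called in only 1 of 8 fits with 1 library left out. The epithelial marker sums given above ran in a like order, lowest in that library, between in Bcl6-flox Prx1-cre and highest in the other 3 Bcl6-flox libraries. With the epithelium covariate the value turned to 0.27 ± 0.15 (limma adjusted p = 0.234), and with the endothelial covariate to 0.75 ± 0.36 (limma adjusted p = 0.232), so the direction for Igfbp5 is not set. Igfbp6 had 1529, 881, 1798 and 2000 in Bcl6-flox Prx1-cre, against 1662, 1322, 1094 and 1704 in Bcl6-flox, and the groups overlapped (log2 fold change 0.06 ± 0.26, limma adjusted p = 0.898).

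Other genes of the pathway also changed in Bcl6-flox Prx1-cre fat at 9 weeks. Of 62 tested, 8 rose and 8 fell, where 14.5% of all genes were called. Igf2, a ligand of Igf1r, had 541, 397, 591 and 466 normalized counts in Bcl6-flox Prx1-cre, against 117, 136, 276 and 117 in Bcl6-flox (log2 fold change 1.71 ± 0.28, limma adjusted p = 0.00573), while Igf1 did not pass (-0.52 ± 0.27, limma adjusted p = 0.229). Of 5 tested genes for ligands, carriers and related receptors, Igf2 rose and the orphan receptor gene Insrr fell. Insrr levels were low, at 4.88 to 9.79 in Bcl6-flox Prx1-cre and 14.9 to 18.1 in Bcl6-flox. Of 7 tested genes for proteases of the binding proteins and their inhibitors, Htra1, a secreted serine protease that can cleave IGF binding proteins, rose (5469 ± 1355 against 2136 ± 158 in Bcl6-flox, limma adjusted p = 0.00203). Adam12, a metalloprotease that cleaves Igfbp3 and Igfbp5, fell (1436 ± 510 against 4481 ± 446, limma adjusted p = 0.00341).

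In the signalling core of 30 tested genes, the kinase gene Akt1 rose (8251 ± 798 against 5413 ± 190 in Bcl6-flox), and Tbc1d4, an Akt substrate that holds glucose transporters inside the cell, and Gsk3a fell. Of 11 tested negative regulators, the receptor-binding adaptor gene Grb10 and the phosphatase gene Inpp5k rose. The phosphatase genes Inppl1 and Phlpp2 fell. Of 6 growth hormone axis genes, Socs2, an inhibitor of growth hormone signalling, rose (6488 ± 1422 against 527 ± 182, log2 fold change 3.67 ± 0.27, limma adjusted p = 0.000291) and Stat5a fell. Of 3 tested CCN and IGFBP-like genes, Ccn1, which encodes a matrix protein, rose.

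At P25 and 22 C, 0 of 6 members were called by limma between Bcl6-flox Prx1-cre and Bcl6-flox mice, against 3.53% of 12738 genes. At an unadjusted p under 0.05 there were 3 of 6, against 15% of genes. No member's groups failed to overlap, and 1.3% of genes were free of overlap. The members' median log2 fold change was 0.17, against 0.00 over all genes.

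Insr, Igf1r and Igfbp7 were the 3 members with an unadjusted p under 0.05 at P25. Insr ranged from 1894 to 2992 with a median of 2278 in the 8 Bcl6-flox Prx1-cre libraries, and from 1644 to 2315 with a median of 2019 in the 7 Bcl6-flox libraries (log2 fold change 0.24 ± 0.10, limma adjusted p = 0.27). Igf1r ranged from 359 to 475 with a median of 454 in Bcl6-flox Prx1-cre, and from 313 to 460 with a median of 380 in Bcl6-flox (0.21 ± 0.10, limma adjusted p = 0.305). In both receptors the upper part of the Prx1-cre range lay above all Bcl6-flox libraries and the rest overlapped.

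Igfbp7 ranged from 4238 to 7138 with a median of 5751 in Bcl6-flox Prx1-cre at P25, and from 4198 to 5376 with a median of 4896 in Bcl6-flox. The log2 fold change was 0.27 ± 0.12 (limma adjusted p = 0.282), and 7 of 8 Prx1-cre libraries were above the Bcl6-flox mean. Xist was high in 4 of 8 Bcl6-flox Prx1-cre and 3 of 7 Bcl6-flox libraries, and the log2 fold change of Igfbp7 was 0.27 within these and 0.29 within the rest. The endothelial sums overlapped, at 12620 to 28010 in Bcl6-flox Prx1-cre and 13660 to 23730 in Bcl6-flox. Within Bcl6-flox Prx1-cre, libraries with sums of 18600 or less had 4238 to 5372 of Igfbp7, and those with 23240 or more had 6129 to 7138. In Bcl6-flox, Igfbp7 was 4198 at the lowest sum and 5273 at the highest, with a less regular order between. The part of endothelial content in these values was not tested. The P25 and 9-week values come from separately scaled tables of different mice that also differ in temperature, and the difference between the 2 ages was not tested. Irs1 ranged from 1383 to 2526 with a median of 1878 in Bcl6-flox Prx1-cre and from 1155 to 2074 with a median of 1734 in Bcl6-flox (0.13 ± 0.14, limma adjusted p = 0.75).

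Igfbp5 and Igfbp6 varied more between P25 libraries than between the genotypes. Igfbp5 ranged from 1132 to 3315 with a median of 1745 in Bcl6-flox Prx1-cre, and from 1295 to 7180 with a median of 2305 in Bcl6-flox (log2 fold change -0.50 ± 0.36, limma adjusted p = 0.579). Igfbp6 ranged from 284 to 2044 with a median of 639 in Bcl6-flox Prx1-cre, and from 172 to 3276 with a median of 833 in Bcl6-flox (0.08 ± 0.67, limma adjusted p = 0.979). The high libraries were the same for both genes. The 5 libraries with the most Igfbp6, 3 of Bcl6-flox Prx1-cre and 2 of Bcl6-flox, had 1484 to 3276 of it and 2730 to 7180 of Igfbp5. The other 10 libraries had 172 to 968 of Igfbp6 and 1132 to 2565 of Igfbp5.

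Those 5 libraries also had the highest sums of the markers of adipose progenitors and fibroblasts, at 27480 to 44970, against 8555 to 21550 in the other 10. They had the highest macrophage marker sums too, at 25100 to 35110, against 4459 to 16500 in the other 10, and the part of macrophages in these values was not tested. The progenitor list holds neither gene, and none of its 11 tested markers was called between the genotypes. Of these markers 9 were higher in Bcl6-flox Prx1-cre, and the median log2 fold change of the 11 was 0.21. A fit with this score may therefore not keep genotype and progenitor markers apart. With the list's score as a covariate, also added once the data had been seen, the log2 fold change of Igfbp5 was -0.63 ± 0.12 (limma adjusted p = 0.00439) and that of Igfbp6 was -0.17 ± 0.21 (limma adjusted p = 0.753). Igfbp5 was lower in Bcl6-flox Prx1-cre for a given progenitor score in that fit, and did not pass without it.

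**Figure D2:**
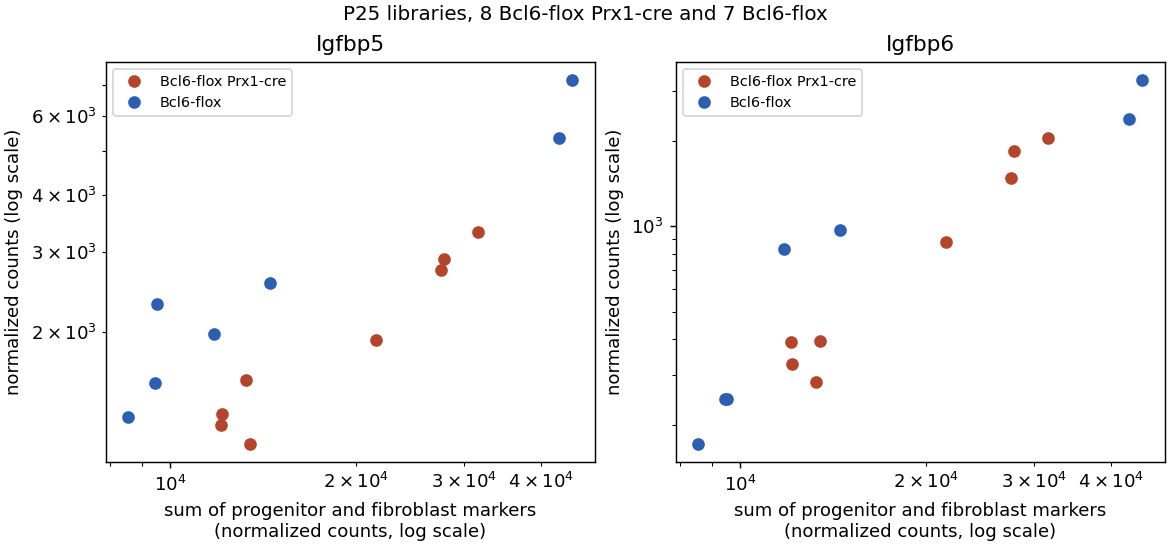
Normalized counts of Igfbp5 (left) and Igfbp6 (right) against the summed progenitor and fibroblast markers in the P25 libraries, on log axes, with 1 point per library for Bcl6-flox Prx1-cre (red) and Bcl6-flox (blue). The 5 libraries with sums of 27480 or more have the 5 highest values of both genes.

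Among the other genes of the pathway at P25, 4 of the 63 tested were called, against 3.53% of all genes. All 4 were higher in Bcl6-flox Prx1-cre. Igf2 ranged from 459 to 693 in Bcl6-flox Prx1-cre and from 244 to 410 in Bcl6-flox, with no overlap (log2 fold change 0.88 ± 0.12, limma adjusted p = 0.00036). Htra1 averaged 3477 ± 455 in Bcl6-flox Prx1-cre and 1885 ± 621 in Bcl6-flox (limma adjusted p = 0.0031). Akt1 averaged 3368 ± 441 and 2348 ± 309 in the same order of genotypes (limma adjusted p = 0.00549), and Socs2 1618 ± 351 and 226 ± 60.1 (log2 fold change 2.84 ± 0.19, limma adjusted p = 1.82e-07; SD, n = 8 and 7). No tested negative regulator of the receptor, of 11, was called, and Igf1 did not pass (-0.25 ± 0.17, limma adjusted p = 0.541). All 4 genes also rose in the 9-week mice.

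In wild-type mice of 9 weeks, 0 of 6 members were called by limma between 4 C and 22 C, against 4.47% of 12118 genes, and 2 members against 23.8% of genes had an unadjusted p under 0.05. The 2 were Insr, higher at 4 C, and Igfbp7, lower at 4 C. Igfbp7 was the 1 member of 6 whose groups did not overlap, where 17.3% of genes had none.

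Igfbp7 had 1494, 1790, 1990 and 2090 normalized counts at 4 C, against 2440, 2279, 2416 and 2977 at 22 C. Every cold library was below every library at 22 C (log2 fold change -0.46 ± 0.14, limma adjusted p = 0.0886). Endothelial marker sums were 5394 to 6825 at 4 C and 7157 to 7811 at 22 C, with none of 11 tested endothelial markers called. With the endothelial covariate, added after seeing the data, the value of Igfbp7 was -0.62 ± 0.23 (limma adjusted p = 0.196). The endothelial sums of the groups did not overlap, so this fit cannot separate temperature from the endothelial share of the tissue. Schwann cell marker sums did not overlap either, at 3086 to 3751 at 4 C and 6132 to 7329 at 22 C, with 4 of 10 markers fallen. The part of either list in the Igfbp7 values was not tested. Insr had 2602, 2811, 2021 and 1926 at 4 C, against 1884, 2183, 1401 and 1595 at 22 C (0.41 ± 0.18, limma adjusted p = 0.21). The groups overlapped because libraries 1 and 2 of each group were higher than libraries 3 and 4.

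Libraries 1 and 2 of both temperatures were Xist-low and libraries 3 and 4 Xist-high, so the 2 classes were balanced. Within the Xist-low libraries the log2 fold change of Insr was 0.42 and within the Xist-high libraries 0.40, and for Igfbp7 they were -0.53 and -0.39. With the Xist class as a covariate both genes were called. Insr was higher at 4 C by 0.41 ± 0.09 (limma adjusted p = 0.0179) and Igfbp7 lower, at -0.46 ± 0.10 (limma adjusted p = 0.02), where 2226 genes were called in that fit.

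Igfbp5 differed between the Xist classes, and Igfbp6 did so at 22 C. Igfbp5 had 2850, 1400, 5797 and 3874 normalized counts at 4 C, against 1227, 1486, 5859 and 5603 at 22 C (0.15 ± 0.63, limma adjusted p = 0.913). The 4 Xist-high libraries, at 3874 to 5859, were above all 4 Xist-low libraries, at 1227 to 2850. Igfbp6 had 815, 455, 900 and 728 at 4 C, against 536, 643, 1844 and 1499 at 22 C (-0.49 ± 0.42, limma adjusted p = 0.524). The 2 libraries at 22 C with high Xist stood above the rest, with a within-class log2 fold change of -1.04 where Xist was high and 0.05 where it was low. These 2 libraries also had the highest macrophage marker sums, 16710 and 13390, against 4873 to 10130 in the others. Their muscle marker sums were 48920 and 21750, against 97.4 and 101 in the other libraries at 22 C. At 4 C the muscle sums ran from 17.4 to 33390. The part of either list in the Igfbp6 values was not tested. The interaction of temperature with Xist class, added after seeing the data, was -1.09 ± 0.38 for Igfbp6 (limma adjusted p = 0.355), and passed for no member. Progenitor marker sums were 16230 to 20580 at 4 C and 24140 to 28280 at 22 C in the Xist-high libraries, and 9763 to 17070 at 4 C and 9959 to 10320 at 22 C in the Xist-low ones. With the progenitor covariate, added after seeing the data, Igfbp5 was higher at 4 C by 0.76 ± 0.12 (limma adjusted p = 0.00429), Igf1r by 0.42 ± 0.13 (limma adjusted p = 0.0455), and Igfbp6 was at -0.10 ± 0.12 (limma adjusted p = 0.598). The direction of Igfbp5 was not stable over covariates, with -0.10 ± 0.29 under the epithelium covariate (limma adjusted p = 0.835) and -0.34 ± 1.08 under the endothelial one (limma adjusted p = 0.903). Epithelial marker sums were 8176 and 9639 at 4 C and 3747 and 4896 at 22 C in the Xist-high libraries, and 10.7 and 2830 at 4 C and 38.6 and 296 at 22 C in the Xist-low ones.

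**Figure D3:**
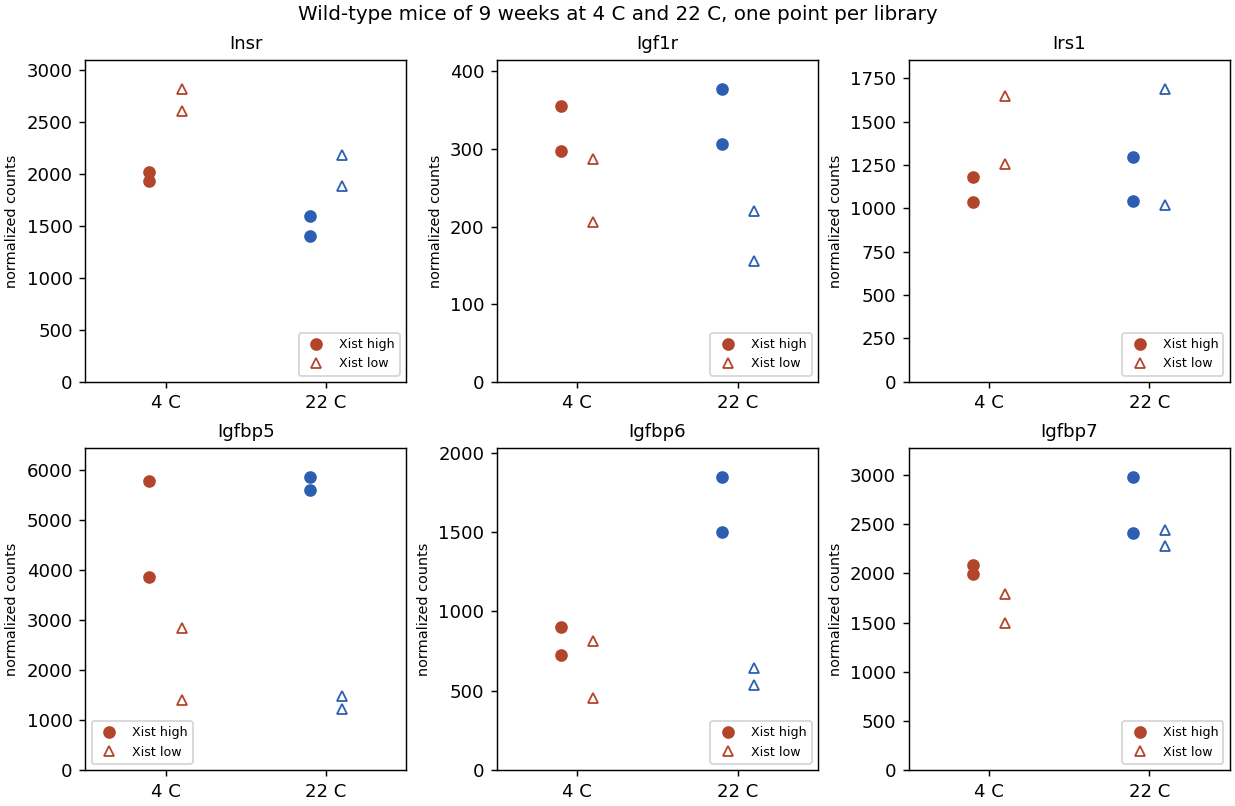
Normalized counts of the 6 genes in wild-type mice of 9 weeks at 4 C (left) and 22 C (right), 1 point per library, with filled circles for Xist-high and open triangles for Xist-low libraries. Igfbp7 is lower at 4 C, with all 4 libraries at 2090 or below and those at 22 C at 2279 or above, and Igfbp5 is higher in the Xist-high libraries at both temperatures.

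Igf1r had 287, 205, 356 and 298 normalized counts at 4 C, against 219, 156, 377 and 306 at 22 C (0.17 ± 0.28, limma adjusted p = 0.773), and Irs1 had 1645, 1257, 1183 and 1037 at 4 C, against 1019, 1686, 1042 and 1298 at 22 C (0.03 ± 0.20, limma adjusted p = 0.94). Both genes overlapped between temperatures. Of the other genes of the pathway in the cold, Igfals, which encodes the acid-labile subunit that carries IGF complexes in blood, fell (348 ± 40 at 4 C against 644 ± 61.5 at 22 C, limma adjusted p = 0.013). Adam12 rose (1827 ± 565 against 537 ± 137, limma adjusted p = 0.0169). In the signalling core Sos1 rose and Foxo6 fell among 30 tested genes. Of 62 tested pathway genes 2 rose and 2 fell, where 4.47% of all genes were called. Igf1 had 938, 1550, 1790 and 1433 at 4 C, against 2087, 2234, 2026 and 2280 at 22 C, with no overlap, and did not pass (-0.63 ± 0.19, limma adjusted p = 0.0859).

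In wild-type mice at P28, 0 of 6 members were called by limma between 30 C and 22 C, against 4.45% of 12283 genes, and 2 against 19.4% of genes had an unadjusted p under 0.05. Groups did not overlap for 1 of 6 members and for 12.9% of genes. That member was Igf1r, with 261, 286, 270 and 267 normalized counts at 30 C, against 237, 224, 211 and 238 at 22 C. All libraries at 30 C were above all at 22 C, and the log2 fold change was 0.25 ± 0.07 (limma adjusted p = 0.079). Macrophage marker sums were 7213 to 8931 at 30 C and 4950 to 6830 at 22 C, with 3 of 12 markers risen. Adipocyte sums were 96930 to 111300 and 69300 to 92650 in the same order, though the median log2 fold change of the 9 markers was -0.20. Thermogenic adipocyte sums were lower at 30 C, at 1025 to 1848 against 2907 to 4992. The part of these lists in the Igf1r values was not tested.

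Igfbp5 had 1245, 1583, 1471 and 1585 normalized counts at 30 C, against 2304, 1993, 1498 and 2117 at 22 C. Library 3 at 22 C lay inside the range at 30 C and the other 3 lay above it. The log2 fold change was -0.42 ± 0.14 (limma adjusted p = 0.128) with all libraries. Without library 3 at 22 C it was -0.54 ± 0.10 (limma adjusted p = 0.0162), the only call in 8 fits with 1 library left out. It was -0.58 ± 0.10 with the progenitor covariate, added after seeing the data (limma adjusted p = 0.0166). The same library had the lowest Ucp1 at 22 C, 950 against 1767 to 2194 in the other 3. It also had the lowest adipocyte marker sum at 22 C, 69300 against 84820 to 92650. Its progenitor sum was the lowest there too, 8836 against 11050 to 11740, and its epithelial sum the highest, 7731 against 75.5 to 3593. The part of any of these in its Igfbp5 value was not tested.

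The other members overlapped at P28. Insr had 1182, 1124, 1213 and 1030 at 30 C, against 1008, 1305, 1045 and 1053 at 22 C (0.05 ± 0.09, limma adjusted p = 0.843). Irs1 had 895, 962, 912 and 593 at 30 C, against 571, 796, 658 and 756 at 22 C (0.26 ± 0.16, limma adjusted p = 0.438), with library 4 at 30 C far below the other 3. That library was the only one at 30 C with low Xist and had the highest muscle marker sum of the 8, 16730, against 318 to 5607 in the others at 30 C and 344 to 960 at 22 C. Of the libraries at 22 C, 2 were Xist-high and 2 Xist-low. Within the Xist-high libraries the log2 fold change of Irs1 was 0.39 and within the Xist-low ones -0.19, with 1 Xist-low library at 30 C. The same values were 0.28 and 0.21 for Igf1r and -0.32 and -0.43 for Igfbp5. Igfbp6 ranged from 478 to 702 at 30 C and from 472 to 709 at 22 C, and Igfbp7 from 2459 to 2789 at 30 C and from 1954 to 2546 at 22 C (0.20 ± 0.09, limma adjusted p = 0.266).

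Among core genes downstream of these receptors, Pik3r1 and Foxo1 were called at 30 C. Pik3r1, which encodes the regulatory subunit of phosphatidylinositol 3-kinase, fell (1453 ± 150 at 30 C against 2929 ± 335 at 22 C, limma adjusted p = 0.00211). Foxo1, a transcription factor held out of the nucleus by insulin, rose (1073 ± 91 against 789 ± 69.5, limma adjusted p = 0.0238). These were 1 fall and 1 rise among 30 tested core genes, where 4.45% of all genes were called. Of 6 growth hormone axis genes Cish, a target of STAT5, fell (54.9 ± 7 against 209 ± 73.3, limma adjusted p = 0.00676). The protease genes Adam12 (521 ± 50.4 against 863 ± 49.5) and Ctsd also fell, 2 of 6 tested. None of 5 tested genes for ligands, carriers and related receptors was called, with Igf1 at -0.30 ± 0.16 (limma adjusted p = 0.35).

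TrkA-flox Th-cre mice at P28 shared their 4 wild-type libraries with the comparison of temperatures, so the values of these comparisons are not independent. Here 0 of 6 members were called by limma, against 2.66% of 11899 genes, and 3 against 19.2% of genes had an unadjusted p under 0.05. No member was free of overlap, and 11.2% of genes were. Igfbp6 had 482, 739, 767 and 880 normalized counts in TrkA-flox Th-cre, against 448, 499, 418 and 623 in wild type (0.51 ± 0.18, limma adjusted p = 0.176). All but library 1 of TrkA-flox Th-cre were above the wild-type range. Progenitor marker sums were 11000 to 12330 in TrkA-flox Th-cre and 7844 to 10330 in wild type. Macrophage sums were 7985 to 9896 and 4388 to 6002 in the same order, with 5 of 11 tested markers risen. Adipocyte and muscle sums were also higher and Schwann cell sums lower, each without overlap. The part of macrophage, adipocyte, muscle or Schwann cell content in these values was not tested. With the progenitor covariate the value of Igfbp6 was 0.50 ± 0.29 (limma adjusted p = 0.606). Of the libraries, 1 of TrkA-flox Th-cre and 2 of wild type were Xist-high, and the log2 fold change of Igfbp6 was 0.59 within these and 0.52 within the rest.

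The receptor genes gave small differences that did not pass. Insr had 1111, 1349, 1091 and 1037 in TrkA-flox Th-cre, against 885, 1137, 922 and 921 in wild type (0.25 ± 0.11, limma adjusted p = 0.259). Igf1r had 196, 275, 264 and 234 in TrkA-flox Th-cre, against 209, 196, 187 and 209 in wild type (0.26 ± 0.12, limma adjusted p = 0.253). In each receptor the groups met in 1 library or more. Irs1 ranged from 493 to 706 in TrkA-flox Th-cre and from 503 to 696 in wild type, Igfbp5 from 1191 to 1953 and from 1327 to 2032, and Igfbp7 from 1658 to 2572 and from 1731 to 2244, in the same order of groups. Of the other pathway genes, Trib3, an inhibitor of Akt, rose (61.6 ± 10.7 against 24 ± 6.1 in wild type, limma adjusted p = 0.0171), and so did Ghr, the growth hormone receptor gene (5698 ± 871 against 3617 ± 128, limma adjusted p = 0.0257). No ligand, protease or core gene was called. Of 60 tested pathway genes 2 rose and none fell, where 2.66% of all genes were called.

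**Figure D4:**
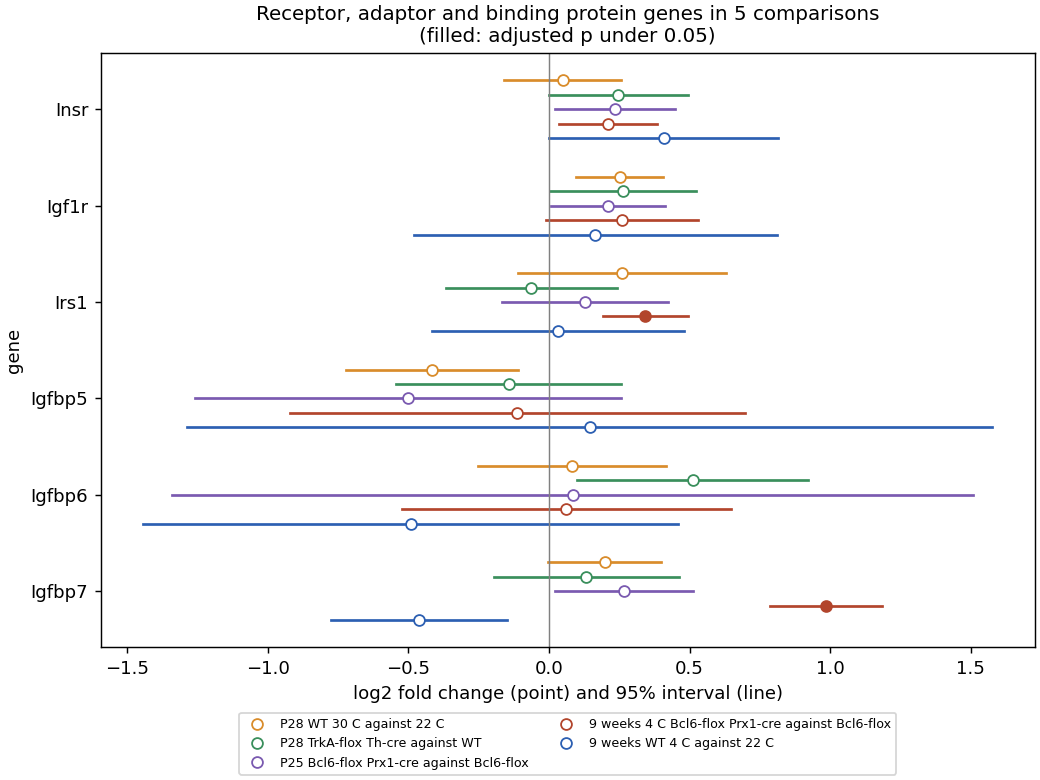
Log2 fold changes of the 6 genes with 95% intervals from limma in the 5 comparisons, with filled points where the adjusted p was under 0.05. The filled points are Igfbp7 at 0.99 and Irs1 at 0.34, both in Bcl6-flox Prx1-cre against Bcl6-flox mice at 9 weeks and 4 C, and the widest intervals are those of Igfbp5 and Igfbp6.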

How the data were processed

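RNA of mouse inguinal fat was sequenced from 43 samples with a stranded mRNA kit, per the labels' protocols. The authors deposited a signal per gene, normalized counts, in 5 tables; the submitters' processing notes name kallisto, DESeq2 and mm10, with versions and settings not given in the sources used here. Low values were whole multiples of a common step (tolerance 0.02) in 68.7 to 74.3% of cases at P25 and P28 and in 15.8 to 49.1% at 9 weeks, so reads were not recovered; depth at P25 and P28 is an estimate from that step. Columns of the P25 table carry codes that match no sample title, and were assigned to groups only.

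Differences were tested with limma 3.58.1 in R 4.3.3 (mean-variance trend, no covariate) on log2(value + 1), a scale that understates changes of low genes. Genes were tested where the number of libraries reaching 10 was no smaller than the smaller group; p-values were adjusted over all of them (Benjamini-Hochberg, 0.05). The members and lists were chosen with earlier results of these data known. Members are named throughout, with called genes of the pathway lists (up to 4 per list by smallest p), the targeted genes, Igf1, Igf2 and Ucp1. Transcript lengths came from a mouse gene annotation and promoters from RefSeq (GRCm38.p6). Shared replicate numbers were not treated as pairs, since in no table was every correlation of same-numbered deviations over 0.1. For 4 C against 22 C the correlations were -0.262, 0.768, 0.501 and 0.508 for replicates 1 to 4. The rule cannot settle whether samples there were matched. Alternatives were pseudocounts of 0.5 and 5, no filter or a filter of 50, other size factors, quantile normalization, library weights, covariates for Xist, muscle and epithelium, a replicate block and each library left out. Progenitor and endothelial covariates, the Xist interaction and within-Xist values were added after seeing the data. Some genes that this rule names are not reported here. The script was tested on simulated data. Figures used matplotlib 3.10.9 in Python 3.11.15.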

Additional observations from a re-analysis of the deposited data

Results flagged for a closer look

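Of 54 groups of 4 to 8 libraries checked for a library far from the others, 2 held one, and chance flags about 1 in 20 groups. Insr in wild-type mice at P28 and 22 C had 1305 normalized counts in replicate 2, against 1008 to 1053 in the other 3 libraries. Irs1 in Bcl6-flox Prx1-cre mice at 9 weeks and 4 C had 4117 in replicate 4, against 3672 to 3726 in the other 3; without replicate 4 the call of Irs1 in that comparison was kept.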

How the results depend on the processing

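The calls of Igfbp7 and Irs1 in the 9-week Bcl6 comparison kept their direction under all alternatives run and Igfbp7 kept its call in each. Over all members and settings other than leaving out a library, 341 log2 fold changes kept direction and side of the threshold, 18 gained a call, 2 lost one and 17 turned round. With a library left out, 257 kept both, 4 gained a call and 21 turned round. The causes of the changes listed here were not tested, and where groups hold 4 libraries a call can rest on 1 of them.

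Members called, and genes called, changed as follows. At P28 between 30 C and 22 C, 1 member (Igfbp5) was called with library weights (905 genes), with the progenitor covariate and with the endothelial covariate (865 genes), and 112 genes with the muscle covariate. For TrkA-flox Th-cre the genes called were 957 with library weights, 19 with the muscle, 208 with the epithelium, 17 with the progenitor and 611 with the endothelial covariate. At P25, 1 member was called with the progenitor covariate (Igfbp5; 890 genes) and 1 with the endothelial covariate (Insr at 0.29, limma adjusted p = 0.0486; 737 genes). For Bcl6-flox Prx1-cre at 9 weeks, 4 members were called with the muscle covariate (also Insr and Igfbp5), 1 with the endothelial covariate (969 genes), and 4777 genes with library weights and 3277 with the epithelium covariate. For 4 C against 22 C, 2 members were called with the Xist covariate (2226 genes) and the epithelium covariate (2881 genes), in both Insr and Igfbp7, 1 with the muscle covariate (Igfbp7; 1893 genes) and 3 with the progenitor covariate (Igf1r, Igfbp5 and Igfbp7; 2938 genes). Genes called there were 356 with no filter, 1872 with library weights and 103 with the endothelial covariate. Where a member's call is given in this list without a number of genes, that number was not classed as changed from the main fit. The main fits called 1953 of 13496 genes (14.5%) for Bcl6 at 9 weeks and 547 of 12283 (4.45%) at P28 between 30 C and 22 C.

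The replicate numbers were not treated as pairs in the main fit. With them as a block, 236 genes were called at P28 between temperatures and 1171 for Bcl6 at 9 weeks. For 4 C against 22 C, 1666 genes were called. The block left 1 member called for Bcl6 at 9 weeks (Irs1 at a limma adjusted p of 0.0521) and made it 2 for 4 C against 22 C (Insr at 0.0318 and Igfbp7 at 0.0348), and changed no other member's call. No paired analysis was possible at P25 because its columns carry no replicate numbers of the labels.

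With each library left out in turn, the members called ranged from 0 to 1 at P28 between temperatures and from 2 to 4 for Bcl6 at 9 weeks, and were 0 in each such fit of the other comparisons. Genes called ranged from 176 to 714 at P28 between temperatures, 93 to 870 for TrkA-flox Th-cre, 288 to 666 at P25, 1055 to 3548 for Bcl6 at 9 weeks and 36 to 356 for 4 C against 22 C.

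Log2 fold changes that turned round were all of uncalled members. At P28 between temperatures Igfbp6 was -0.036 with the progenitor covariate, and ranged from -0.0019 to 0.20 with libraries left out. In TrkA-flox Th-cre, Irs1 was 0.031 with the muscle and 0.012 with the epithelium covariate and ranged from -0.16 to 0.015, and Igfbp7 was -0.18 with the progenitor covariate. At P25 Igfbp6 was -0.14 with library weights, -0.029 with the Xist and -0.17 with the progenitor covariate, and ranged from -0.25 to 0.46. For Bcl6 at 9 weeks Igfbp6 was -0.13 with library weights and -0.19 with the muscle covariate and ranged from -0.083 to 0.31, while Igfbp5 was 0.27 with the epithelium, 0.14 with the progenitor and 0.75 with the endothelial covariate and ranged from -0.52 to 0.11. For 4 C against 22 C Irs1 was -0.032 with quantile normalization and -0.028 with the progenitor covariate and ranged from -0.10 to 0.18, Igfbp6 was 0.087 with library weights, Igfbp5 was -0.10 with the epithelium and -0.34 with the endothelial covariate and ranged from -0.25 to 0.52, and Igf1r ranged from -0.063 to 0.36.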
